A study of Mus musculus with 6 samples.

Results

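Hepcidin and the genes that sense, carry, export and store iron were compared between the livers of alkaline sphingomyelinase knockout mice and wildtype mice. The 10 genes are Hamp, Hamp2, Bmp6, Hfe, Tfr2, Tmprss6, Trf, Tfrc, Slc40a1 and Fth1, taken by symbol from a table of 23415 genes, and all 10 are among the 11515 genes that the authors tested. The knockout group held 3 libraries (animals 82, 84 and 85) and the wildtype group 3 (animals 81, 83 and 90), all of C57BL/6 mice, read from the K or W that opens each sample name. Enpp7 is the gene of this enzyme, which splits sphingomyelin at the intestinal surface. The labels give neither the allele nor the age of the animals. The deposited table holds 1 expression value per group in FPKM (fragments scaled for transcript length and sequencing depth). No value per mouse was used, so no spread between mice can be given.

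Iron enters plasma through ferroportin, the exporter encoded by Slc40a1, and hepcidin, the liver hormone encoded by Hamp, binds ferroportin and has it degraded. Hepatocytes make hepcidin in response to BMP6 from the sinusoidal endothelium, through a receptor complex in which HFE, transferrin receptor 2 and hemojuvelin take part, and in response to interleukin 6 through STAT3. Cells take up transferrin-bound iron through transferrin receptor 1 (Tfrc) and keep it in ferritin, and iron regulatory proteins bind stem-loops in several of these transcripts when iron is scarce.

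Of the 10 genes, 1 fell in the knockout livers, 0 rose and 9 did not pass the authors' test. The gene that fell was Tfrc, at 3.79 FPKM in the knockout group against 7.29 FPKM in the wildtype group. Here a q under 0.05 in the authors' deposited table counts as a call, and 1.08% of all tested genes were called (0.504% lower and 0.573% higher in the knockout livers). The count of the 10 genes rests on Tfrc alone. That share of 1.08% is also the background for the counts of calls in each list below. The log2 ratios of the 10 genes, knockout over wildtype throughout, had a median of 0.11, with 6 above 0 and 4 below, beside a median of -0.0012 over all tested genes. Scaling both groups to the same summed FPKM shifts that overall median to -0.1958. It also gives 49 calls higher and 140 lower, where the values as deposited give 66 higher and 58 lower. All ratios below are those of the deposited values.

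Transcripts of hepatocytes were abundant throughout. Over 13 hepatocyte markers, albumin counted at its listed 0, the median came to 1031 FPKM in the knockout livers and 1180 FPKM in the wildtype livers, whereas 16 markers of intestinal epithelium had medians of 0.250 FPKM in the knockout livers and 0.163 FPKM in the wildtype livers. Liver is the tissue label, although the design text of the series speaks of intestine. Albumin is listed at 0 in both groups under a mark for too many fragments and has no value here. Enpp7 stood at 0.141 FPKM in the knockout livers and 0.0541 FPKM in the wildtype livers and was not tested by the authors, so it does not check the genotype labels.

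The sequences upstream of the mouse hepcidin genes are shown because BMP and STAT signals meet there, and because the copies differ at the BMP element. The 250 bases before each RefSeq transcript start (GRCm38.p6) are written 5′ to 3′ on the gene's own strand, which is the minus strand for both. They lie at chr7:30944030-30944279 for Hamp and at chr7:30924182-30924431 for Hamp2. Capitals mark the BMP responsive element core and, after it, the STAT element.
Hamp: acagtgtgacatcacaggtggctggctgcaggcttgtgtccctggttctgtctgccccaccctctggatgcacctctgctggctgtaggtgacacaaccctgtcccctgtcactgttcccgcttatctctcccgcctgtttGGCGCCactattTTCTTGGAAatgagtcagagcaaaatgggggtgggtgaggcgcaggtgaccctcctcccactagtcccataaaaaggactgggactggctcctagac
Hamp2: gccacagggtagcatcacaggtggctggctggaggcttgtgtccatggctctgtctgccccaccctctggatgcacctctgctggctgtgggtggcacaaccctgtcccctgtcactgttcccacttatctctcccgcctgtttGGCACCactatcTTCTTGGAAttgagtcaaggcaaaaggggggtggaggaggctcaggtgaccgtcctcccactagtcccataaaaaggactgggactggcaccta

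Aligned to each other, these stretches were identical at 227 of 247 bases, or 91.9%. The BMP core GGCGCC began 109 bases before the Hamp start. At the aligned place in Hamp2, 106 bases before its start, the core carries the substitution G4A, counted from 1 at the 5′ end of the element, with the Hamp base first. The STAT element TTCTTGGAA was the same in both genes, and it began 97 bases before the Hamp start and 94 bases before the Hamp2 start, with 6 bases between the elements in Hamp. Of 32851 RefSeq promoter windows, which run from 250 bases before to 50 after a start, 11.9% hold GGCGCC and 8.30% hold TTCNNNGAA on either strand, where N is any base. The windows of 7 of the 10 genes were searched, and those of Tmprss6, Trf and Slc40a1 were not. A gene counted if any of its windows held the string, and Tfr2 had 3 windows, Tfrc 2 and Fth1 2. The percentages are shares of single windows and not of genes. GGCGCC occurred in Hamp and Tfrc, and TTCNNNGAA in Hamp and Hamp2. TGACNNNGC, the core of the antioxidant element, occurred in Bmp6 and Hfe (12.4% of all windows), and ACGTG, the core of the hypoxia element, in Bmp6, Tfr2 and Tfrc (19.6%). A match is a string of letters and not a bound site.

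**Figure D1:**
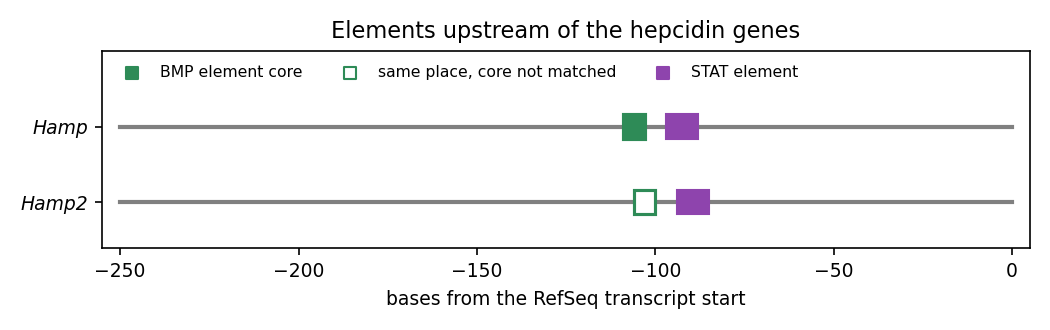
Position of the BMP element core (green) and the STAT element (purple) upstream of Hamp and Hamp2, in bases from the RefSeq transcript start. Both genes hold the STAT element, and the open box in Hamp2 marks the place of the BMP core, which carries G4A.

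The hormone transcripts were among the most abundant of the tested genes. Hamp had 1492 FPKM in the knockout livers and 1316 FPKM in the wildtype livers, which placed it at percentile 99.5 of tested genes in each group. Hamp2, a second copy found in mice whose product is not known to lower iron, had 209 FPKM in the knockout livers and 226 FPKM in the wildtype livers. Hamp stood a little higher and Hamp2 a little lower in the knockout group, both within their error.

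The log2 ratio of Hamp was 0.18 ± 0.30 (SE implied by the authors' statistic), with a 95% interval of -0.41 to 0.77 and q = 0.9998 in the authors' deposited table. In linear terms that interval runs from 0.754-fold to 1.71-fold. Scaled to the same summed FPKM, the ratio of Hamp was -0.01. The log2 ratio of Hamp2 was -0.11 ± 0.24, with an interval of -0.59 to 0.36. The smallest absolute z of any called gene was 3.46, so at its own error Hamp would have needed a 2.06-fold difference to be called and Hamp2 a 1.79-fold one. Hamp was 7.14 times Hamp2 in the knockout group and 5.82 times in the wildtype group, a ratio for which there is no test here.

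Hamp and Hamp2 are near-identical copies, so that reads can be shared between them. Hamp lies on chromosome 7 at 30942369 to 30944017 (mm10) and Hamp2 at 30922372 to 30924181, with 18187 bases between them. Their longest GENCODE transcripts were identical at 388 of 410 aligned bases, or 94.6%. Of 361 windows of 50 bases, the read length, in the Hamp transcript, 60 (16.6%) occur letter for letter in Hamp2 and 221 (61.2%) within 2 mismatches. No source used here says how such reads were counted, so the split between the genes is uncertain. Summed over both genes, FPKM came to 1701 in knockout livers and 1542 in wildtype livers, a log2 ratio of 0.14.

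Genes of the inflammatory arm of hepcidin control were set beside these values. Socs3, a feedback inhibitor that STAT3 induces, rose to 13.0 FPKM in the knockout livers against 2.55 FPKM in the wildtype livers (log2 ratio 2.35 ± 0.29, with q = 5.90e-13 in the authors' deposited table). The 95% interval of Socs3, 3.43-fold to 7.56-fold, lies above that of Hamp. Socs3 was named because it was called, from a list made with earlier results known, so this gap is no test of Hamp. Socs3 was the 1 called gene of 13 tested in this list, beside 1.08% of all tested genes. None of the 13 was called lower, and their median log2 ratio was 0.12. Il6ra, the interleukin 6 receptor chain, was at 9.67 FPKM in the knockout livers and 14.9 FPKM in the wildtype livers (log2 ratio -0.62 ± 0.23, p = 0.00751, with q = 0.323 in the authors' deposited table). Scaling to equal sums made it pass as lower. Il6 was not tested, at 0.0224 FPKM in the knockout livers and 0.0271 FPKM in the wildtype livers, and Stat3 was at 23.2 FPKM in the knockout livers and 21.3 FPKM in the wildtype livers.

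**Figure D2:**
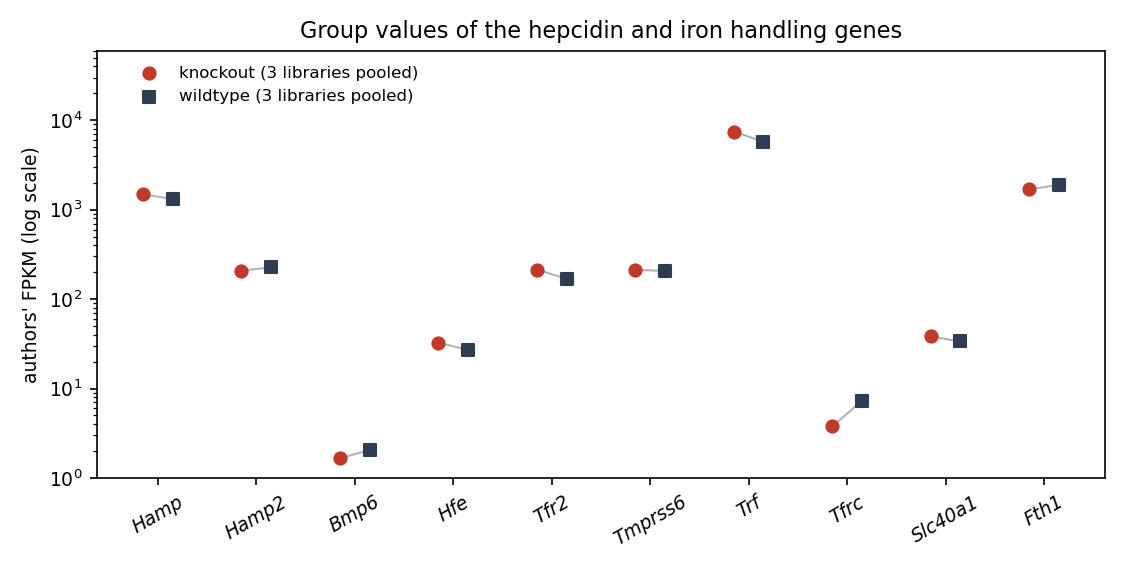
Authors' FPKM value of each gene in the knockout group (red circles) and the wildtype group (dark squares), 1 pooled value of 3 libraries each, on a log axis. The values span from 1.66 FPKM for Bmp6 to 7479 FPKM for Trf in the knockout group, and Tfrc shows the widest gap between the groups.

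The genes that sense iron and signal to hepcidin did not pass. Bmp6, the ligand, was the lowest of the 10 genes, at 1.66 FPKM in the knockout livers and 2.05 FPKM in the wildtype livers (log2 ratio -0.30 ± 0.36). Markers of sinusoidal endothelium, the main source of BMP6 in liver, summed to 154 FPKM in the knockout livers and 165 FPKM in the wildtype livers, with 0 of 13 called and none at 0, and their part in the Bmp6 value was not tested. Hfe, a protein of the MHC class I type that binds transferrin receptor 1, had 32.6 FPKM in the knockout livers and 27.0 FPKM in the wildtype livers (0.27 ± 0.23). Bmp6 differed by less than 1 standard error and Hfe by a little more than 1. Bmp6 lies on chromosome 13 at 38345716 to 38499728 and Hfe on the same chromosome at 23703841 to 23710811 (mm10). Of the 3544 windows of 50 bases in the Bmp6 transcript 175 (4.94%) also occur in that of Txndc5, and 3.32% of the Hfe windows occur in other genes. A match on either strand counts here, as it does for Tfrc, Trf and Fth1 below.

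Tfr2, the hepatocyte sensor of transferrin-bound iron, had 214 FPKM in the knockout livers and 169 FPKM in the wildtype livers (log2 ratio 0.34 ± 0.26). Tfr2 lies on chromosome 5 at 137569851 to 137587481 and Tmprss6 on chromosome 15 at 78439667 to 78468634 (mm10). Tfr2 had the smallest p of the 9 genes that were not called (p = 0.192 in the authors' deposited table). Tmprss6, the protease that cleaves hemojuvelin and so restrains hepcidin, had 212 FPKM in the knockout livers and 207 FPKM in the wildtype livers. Its log2 ratio of 0.03 ± 0.26, with an interval of -0.49 to 0.55, was the smallest of the 10 genes in size. At -0.16 under scaling to equal sums and -0.04 after quantile normalization, its sign is not fixed. Hfe2 (hemojuvelin) was at 24.6 FPKM in the knockout livers and 22.8 FPKM in the wildtype livers.

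Of 27 tested genes of the BMP and SMAD arm 0 were called, beside 1.08% of all tested genes. A list this short may hold 0 calls at that share. The list's median log2 ratio was -0.05. At an unadjusted p under 0.05 there were 2, both lower. These were Bmp7, a BMP ligand, at 1.10 FPKM in the knockout livers and 2.0 FPKM in the wildtype livers (-0.86 ± 0.34, with q = 0.414 in the authors' deposited table), and Bmp2, an endothelial ligand that also induces hepcidin, at 3.52 FPKM in the knockout livers and 5.11 FPKM in the wildtype livers (-0.54 ± 0.27). Of the BMP target genes in the list, named after their values were seen, Id1 and Smad7 had log2 ratios of -0.50 ± 0.34 and -0.45 ± 0.27. The others, Id2, Id3, Smad6 and Atoh8, had log2 ratios of 0.11 ± 0.23, 0.14 ± 0.24, 0.02 ± 0.30 and 0.09 ± 0.28. None of these targets was called.

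Signals from red cell formation and oxygen to hepcidin held no call among 9 tested genes, beside 1.08% of all tested genes. Their median log2 ratio was -0.12, and 2 of the 9 had an unadjusted p under 0.05. Gdf15, a stress cytokine, was at 7.46 FPKM in the knockout livers and 3.87 FPKM in the wildtype livers (0.95 ± 0.36, with q = 0.351 in the authors' deposited table). Epas1, the hypoxia factor HIF-2 alpha, was at 27.4 FPKM in the knockout livers and 39.4 FPKM in the wildtype livers (-0.53 ± 0.23). Fam132b, erythroferrone, was not tested, at 0.0507 FPKM in the knockout livers and 0.0482 FPKM in the wildtype livers, and Epo is listed at 0 in both.

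Tfrc, transferrin receptor 1, was the gene that changed. It fell to 3.79 FPKM in the knockout livers, against 7.29 FPKM in the wildtype livers, which is 0.521-fold with a 95% interval of 0.371-fold to 0.731-fold. The log2 ratio was -0.94 ± 0.25 (p = 0.000160, q = 0.0192 in the authors' deposited table), and its size was at percentile 97.0 of all tested genes. Tfrc passed under each of the 6 alternatives with a q value, from 0.000891 to 0.0391, and its ratio lay between -1.14 and -0.79 under all 8. Not all of these could have failed. A looser q threshold of 0.1 cannot lose Tfrc, scaling to the same sum lowers every ratio, and centring on the median left Tfrc at -0.94. Its level was at percentile 37.0 of tested genes in knockout livers and 52.9 in wildtype livers. In whole liver RNA, fewer cells that carry Tfrc and less Tfrc RNA per cell cannot be told apart.

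Tfrc is not in the authors' short list of 95 differential genes, whose smallest absolute log2 ratio is 1.01. Of the genes called in the full table, 29 are not in that list, and 0 of these have an absolute log2 ratio of at least 1. Tfrc lies on chromosome 16 at 32608896 to 32632794 (mm10), and 0 of the 4841 windows of 50 bases in its longest transcript occur in another gene's transcript. Tfr2 was 56.5 times Tfrc in the knockout livers and 23.2 times in the wildtype livers, on the FPKM scale and with no test.

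Red cell precursors carry much Tfrc, and their markers are given beside it. Of 10 listed red blood cell markers, 6 were tested and 0 called, with 3 at an unadjusted p under 0.05, all higher in the knockout livers. Their FPKM summed to 287 in knockout livers and 193 in wildtype livers, most of it globin. Gata1, a defining transcription factor of red cell precursors, is listed at 0 in both groups, and Klf1, another of their transcription factors, was at 3.04 FPKM in the knockout livers and 2.66 FPKM in the wildtype livers. The part of these cells in the Tfrc value was not tested.

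**Figure D3:**
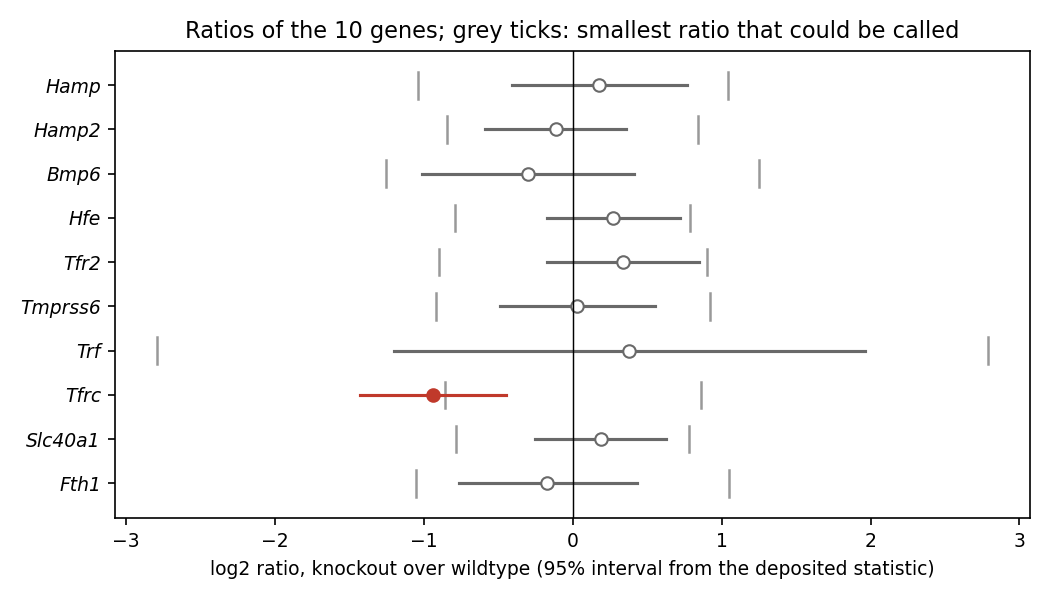
Log2 ratio, knockout over wildtype, of the 10 genes with the 95% interval that the deposited statistic implies. Grey ticks mark, on each side, the smallest ratio that could have been called at that gene's error. Tfrc (red) lies at -0.94 beyond its tick, and the other 9 lie inside theirs.

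The stem-loops that iron regulatory proteins bind are shown for the members that hold them. When iron is scarce, the bound proteins protect the Tfrc transcript, whose stem-loops lie in its 3′ UTR, from decay. Bound to stem-loops in the 5′ UTR, as in ferritin, they block translation. The search was for a bulged C, 5 paired bases, the loop CAGTGN with N other than G, and 5 bases that pair back, G-T pairs allowed, in the longest protein-coding GENCODE M21 transcript of each gene. It found such an element in 3 of the 10 genes and in 0.936% of 21901 protein-coding genes. Elements with another loop or an imperfect stem would be missed, so the counts are those of this pattern. In the sequences below, written 5′ to 3′ in transcript direction, capitals mark the loop.
Tfrc element 1: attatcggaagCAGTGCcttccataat
Tfrc element 2: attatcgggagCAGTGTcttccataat
Tfrc element 3: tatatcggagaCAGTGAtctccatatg
Tfrc element 4: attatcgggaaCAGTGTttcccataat
Slc40a1 element: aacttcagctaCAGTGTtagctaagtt
Fth1 element: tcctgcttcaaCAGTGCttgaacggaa

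The 4 Tfrc elements found lie in the 3′ UTR within chr16:32631220-32631737 (GRCm38, plus strand), and their loops begin at bases 3327, 3706, 3771 and 3818 of a transcript of 4890 bases. The Slc40a1 element lies in the 5′ UTR at chr1:45925466-45925492 (minus strand) and the Fth1 element in the 5′ UTR at chr19:9982733-9982759 (plus strand). Tfrc, with its elements in the 3′ UTR, was called, and Slc40a1 and Fth1, with theirs in the 5′ UTR, were not. The part of the elements in these values was not tested. FPKM measures the transcript and not its translation.

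**Figure D4:**
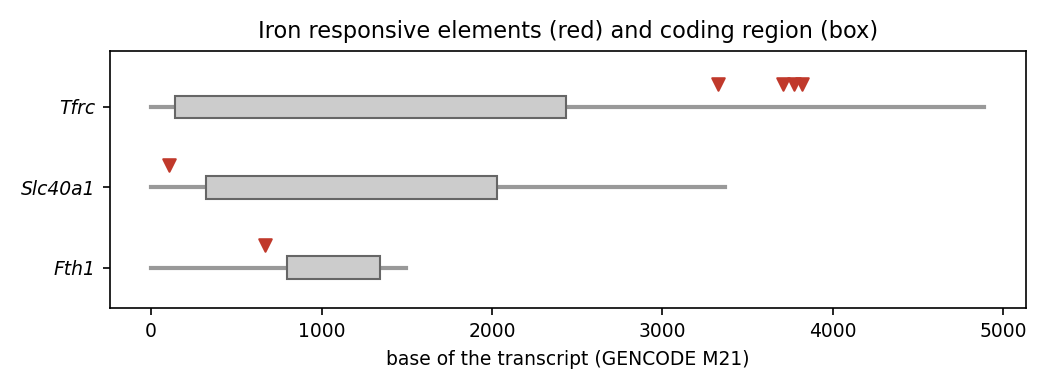
Transcripts of Tfrc, Slc40a1 and Fth1 with the coding region as a grey box and each iron responsive element found as a red mark, in bases from the transcript's first base. The search pattern found 4 elements in Tfrc after its coding region, and 1 each in Slc40a1 and Fth1 before theirs.

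Trf, plasma transferrin, was the most abundant of the 10 genes, at 7479 FPKM in the knockout livers and 5752 FPKM in the wildtype livers. Its log2 ratio of 0.38 ± 0.81 had the widest error of the 10, with an interval of 0.435-fold to 3.89-fold, and a 6.93-fold difference would have been needed for a call. After quantile normalization it was -0.25. Of its 2522 windows of 50 bases, 2012 (79.8%) also occur in the GENCODE gene Gm20425, which was not analysed here. Trf lies on chromosome 9 at 103208876 to 103230286 (mm10).

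Slc40a1, ferroportin, had 38.3 FPKM in the knockout livers and 33.6 FPKM in the wildtype livers (log2 ratio 0.19 ± 0.22, and -0.01 under scaling to equal sums). The gene lies on chromosome 1 at 45908070 to 45925594 (mm10). Ferroportin is high in Kupffer cells, which return iron from old red cells. Of 14 tested Kupffer cell and macrophage markers, 13 log2 ratios lay above 0 and 1 below as deposited, with a median of 0.49. At an unadjusted p under 0.05 there were 9, all higher. By the q threshold 2 rose as deposited and 0 fell, and 0 passed under scaling to equal sums. The 2 were Marco, a scavenger receptor, at 5.96 FPKM in the knockout livers and 2.52 FPKM in the wildtype livers, and C1qa, a complement chain, at 96.4 FPKM in the knockout livers and 55.7 FPKM in the wildtype livers. All 14 markers together summed to 602 FPKM in knockout livers and 391 FPKM in wildtype livers, and none is at 0. Their part in the Slc40a1 value was not tested.

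Fth1, the ferritin heavy chain, which oxidises iron for storage, had 1692 FPKM in the knockout livers and 1898 FPKM in the wildtype livers. The log2 ratio of -0.17 ± 0.30 had an interval of 0.590-fold to 1.35-fold. The gene lies on chromosome 19 at 9980600 to 9985111 (mm10), and 4.01% of its 50-base windows also occur in the transcript of Gm6977. Ftl1, the light chain, was at 4166 FPKM in the knockout livers and 4724 FPKM in the wildtype livers (-0.18 ± 0.40). The light chain was 2.46 times the heavy chain in the knockout livers and 2.49 times in the wildtype livers.

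Of 8 tested ferritin partners and iron regulatory proteins 0 were called, beside 1.08% of all tested genes. Of the 8, 0 had an unadjusted p under 0.05, although 7 log2 ratios lay below 0, with a median of -0.19. Aco1, iron regulatory protein 1, was at 61.8 FPKM in the knockout livers and 76.5 FPKM in the wildtype livers (-0.31 ± 0.23), and Bdh2, a short-chain dehydrogenase, at 13.7 FPKM in the knockout livers and 18.9 FPKM in the wildtype livers (-0.46 ± 0.36). The median of all tested genes on the same deposited values was -0.0012. Mitochondrial iron import and iron-sulfur cluster assembly also held 0 calls among 18 tested genes, beside that share of 1.08%. The median log2 ratio of the 18 was -0.05. Slc25a37, mitoferrin 1, which carries iron into mitochondria, was at 9.32 FPKM in the knockout livers and 13.3 FPKM in the wildtype livers (-0.51 ± 0.23, p = 0.0247 in the authors' deposited table). Glrx5, a glutaredoxin of cluster assembly, was at 162 FPKM in the knockout livers and 210 FPKM in the wildtype livers (-0.37 ± 0.22).

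The other iron transporters, reductases and oxidases held 2 of the 3 calls among the 87 tested genes of the 6 iron lists, all 3 higher. These 3 calls are 3.45% of the 87 genes, beside 1.08% of all tested genes. Lcn2, a secreted protein that binds bacterial iron carriers, rose to 649 FPKM in the knockout livers against 7.72 FPKM in the wildtype livers, which is 84.1-fold. Ltf, lactoferrin, an iron-binding protein of neutrophil granules, rose to 2.24 FPKM in the knockout livers against 0.0158 FPKM in the wildtype livers, and its log2 ratio of 7.15 ± 1.80 rests on a wildtype value near the floor. Neutrophil markers, Ltf among them, summed to 110 FPKM in the knockout livers and 6.31 FPKM in the wildtype livers, with 4 of 9 tested called, all higher, and none at 0. Their part in the values of Lcn2 and Ltf was not tested. Both genes were already known as risers in these livers when the list was made.

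Cp, ceruloplasmin, the plasma ferroxidase that helps ferroportin release iron, was chosen after its values were seen. It was at 355 FPKM in the knockout livers and 190 FPKM in the wildtype livers (log2 ratio 0.90 ± 0.31, p = 0.00335, with q = 0.186 in the authors' deposited table). Steap3, an endosomal ferrireductase, Scara5, a ferritin receptor, and Slc39a14, the ZIP14 carrier of free iron, were picked in the same way and had log2 ratios of 0.61 ± 0.31, 0.69 ± 0.32 and -0.32 ± 0.27. None of these 4 passed. The list's median was 0.32 over 12 tested genes, with 10 log2 ratios above 0. At an unadjusted p under 0.05 there were 5, all higher: Lcn2, Ltf, Cp, Steap3 and Scara5.

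**Figure D5:**
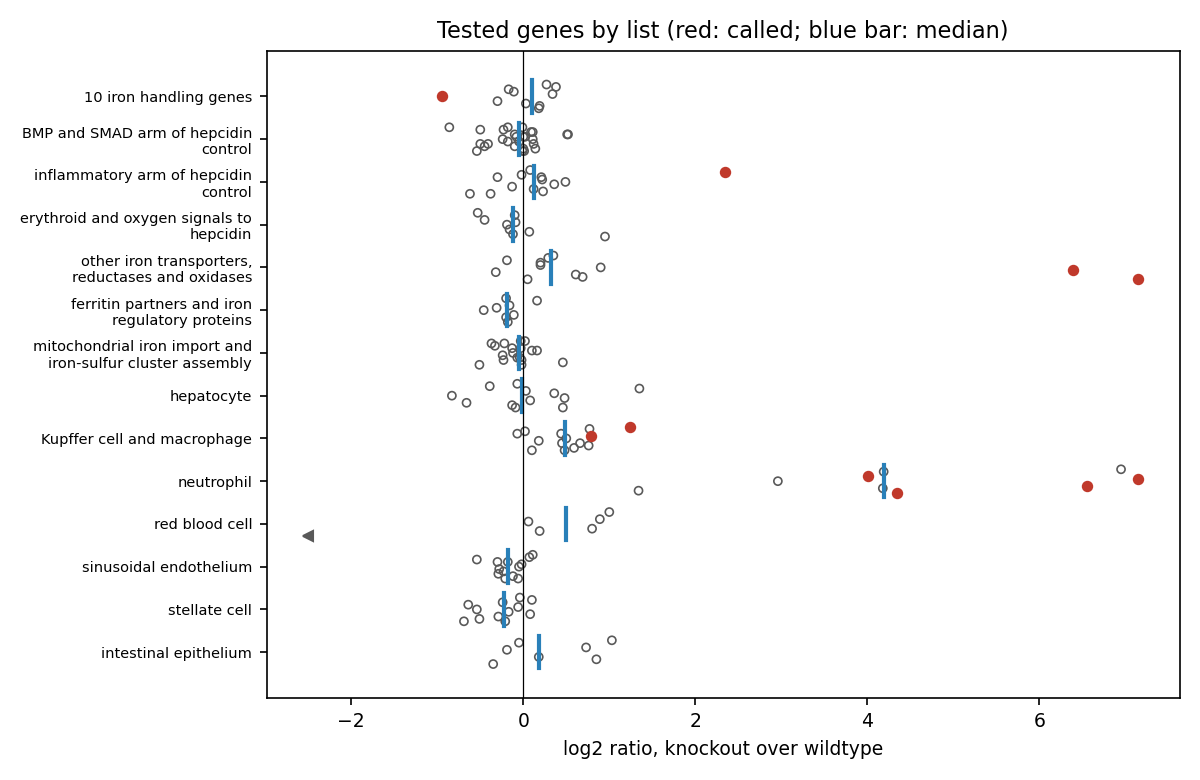
Log2 ratio, knockout over wildtype, of every tested gene in the iron lists and the marker lists (red, called; open, not called; blue bar, list median). Tfrc is the 1 red point left of 0. The triangle near the left edge is Hba-a1, which lies beyond the axis.

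The log2 ratios of the genes most like Hamp were compared over the 2 group values. Among tested genes with a mean of at least 1 FPKM, the 5 nearest were Mfsd12, Stxbp3b, Zfand3, Cdt1 and Urod, each at a log2 ratio of 0.18. Such nearness is common, as 2288 genes of this level lay within 0.1 of Hamp on the log2 scale.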

How the data were processed

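The authors deposited a full gene table and a short list, each with 1 value per group. The values were taken as the authors' FPKM from the Cuffdiff-like layout, since the file headers name no unit. Reads were aligned with Bowtie2 to mm10, per the submitters' processing notes. Per the file headers the deposited log2 ratio has wildtype on top, and its sign was turned here. The deposited p-value equals the two-sided normal p of the authors' score (the test statistic) to within 2.63e-06, and the deposited q-value is its Benjamini-Hochberg adjustment over tested genes. The standard error is the log2 ratio divided by that score, and 95% intervals are normal. This error comes from the authors' model and is no spread between mice, and whether libraries are separate animals is given only by their numbers. Read depth is unknown. Starts had 1 added. The members and lists were chosen with earlier results of these data known; 99 of 100 iron list symbols are in the table. The rule for named genes took the 10 members, called list genes, the 2 smallest p per iron list, and the 5 nearest to Hamp. Other genes named, among them BMP targets, cell markers, Il6, Stat3, Hfe2, Ftl1 and Cp, were added after their values were seen. Scaling, filter, pseudocount and threshold alternatives were tried. The Benjamini-Hochberg adjustment used for recomputed q values was tested on simulated data. Promoters are from RefSeq (GRCm38.p6) and transcripts from GENCODE M21. Python 3.11.15, SciPy 1.17.1 and Biopython 1.88 were used. Columns that belong to other series numbered 0.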

Additional observations from a re-analysis of the deposited data

How the results depend on the processing

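Of 60 log2 ratios of the 10 genes given with a q value, 55 kept their direction and their side of the threshold. The filter on mean FPKM, the adjustment over all listed genes and the q threshold of 0.1 leave the ratio itself unchanged. Its direction could not turn under these settings, and centring on the median shifts it by very little. With a pseudocount, which gives no q and cannot turn a sign, 20 of 20 ratios moved by less than 1 standard error. Of 42 recomputed counts of calls, 41 equalled the deposited count, which is 0 for 4 of the 6 iron lists. Tfrc stayed called under the 6 alternatives with a q value. The q threshold of 0.1 could not lose it, and scaling to the same sum makes its ratio more negative. With both groups scaled to the same summed FPKM, the log2 ratio was -0.01 for Hamp, -0.01 for Slc40a1 and -0.16 for Tmprss6, against positive deposited ratios, and 2 genes of the inflammatory list passed (Socs3 higher, Il6ra lower) in place of 1. After quantile normalization the ratio was -0.04 for Tmprss6 and -0.25 for Trf. None of these 4 genes was called under any alternative. Of the Kupffer cell and macrophage markers, 0 passed with the same sum, and 1 (Marco) passed after quantile normalization and with adjustment over all listed genes, in place of 2. Over all tested genes the calls numbered 189 with the same sum and 124 as deposited. The signs turn by construction, since scaling to the same sum lowers every ratio by the same amount. For quantile normalization the cause was not tested. No paired analysis was possible because the tables hold 1 value per group, and for the same reason leaving out each replicate was not run.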

Other observations

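The search for iron responsive elements also covered other genes known for them. Ftl1 and Alas2, which starts heme synthesis in red cell precursors, each held 1 element in the 5′ UTR, and the transcripts of Slc11a2 and Epas1 held 0 under the same pattern. The Ftl1 element reads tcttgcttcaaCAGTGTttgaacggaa and lies at chr7:45459780-45459806 (GRCm38, minus strand), with the loop in capitals. Alas2 was at 74.2 FPKM in the knockout livers and 71.3 FPKM in the wildtype livers (log2 ratio 0.06 ± 0.26) and was not called. These genes were chosen with earlier results of these data known.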
